A study of Mus musculus with 12 samples.

Results

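Chemokines are small secreted proteins that steer leukocytes and other motile cells, and they act through receptors on the cell surface that signal by G proteins. The genes described here are the protein-coding genes of the mouse named Ccl, Cxcl, Ccr, Cxcr or Ackr with a number, with the additional members Cx3cl1, Cx3cr1, Xcl1 and Xcr1. By this rule there were 50 genes out of the 23150 listed, and they are 30 ligands, 16 receptors that signal through G proteins and 4 atypical receptors, which bind chemokines without such signalling. Cxcl11, annotated as a polymorphic pseudogene, matched the name alone and was left out.

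The mRNA was measured by bulk RNA-seq in granulosa cells (GCs), which line the ovarian follicle, and in ovarian stromal tissue (OST), the ovary left after GCs were released by needle puncture. All ovaries came from immature wild-type C57BL/6J females given PMSG and then hCG to set off ovulation, and were taken 8 h after hCG. The 4 groups of 3 libraries were OST from Sema3E ovaries, OST from IgG ovaries, GCs from Sema3E ovaries and GCs from IgG ovaries. A Sema3E ovary had received 2 µg of recombinant mouse Sema3E, a secreted semaphorin, in a volume of 10 µL, with PBS and 0.1% BSA as the vehicle, and the opposite ovary the same mass of IgG as a control protein. The GCs or the OST of 1 ovary made 1 library, and no source used here ties replicate numbers to mice, so the tests treat all libraries as independent.

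Around ovulation the LH surge, for which hCG stands in, sets off an inflammation-like reaction in the ovary, with leukocytes entering the theca and stroma. The ligands fall into families by the spacing of their first cysteines. CXC ligands with the ELR motif draw neutrophils through Cxcr2, interferon-induced CXC ligands draw T cells through Cxcr3, and many CC ligands draw monocytes and macrophages through receptors such as Ccr1 and Ccr2. Homeostatic ligands such as Cxcl12 and Ccl21a are made steadily by stromal or lymphatic cells and guide cells to their place in a tissue.

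Values are TPM, transcript units scaled to gene length and to the same total in every library, from which sequencing depth cannot be read. A pair of libraries stood apart within their tissues. OST IgG replicate 3 had a median correlation of 0.92 with the other OST libraries on the log2(TPM + 1) scale across genes, against 0.98 to 0.986 for the rest, with 12.1 TPM of the steroidogenic gene Star, against 1173 to 1801 in the other OST libraries, and 3073 TPM of the granulosa cell gene Amh, against 401 to 944. GC IgG replicate 1 had a median correlation of 0.946 with the other GC libraries, against 0.976 to 0.98, and its summed macrophage and monocyte markers reached 2944 TPM, against 204 to 639.7 in the other 5. Its sums of neutrophil (729.9 TPM), T and NK cell (19.8 TPM), B cell (28 TPM) and eosinophil and mast cell markers (21.8 TPM) were also the highest among GC libraries. Globin mRNA of red blood cells took 0.261% to 0.637% of TPM in OST and 4.54% to 19.6% in GCs, the top value being GC IgG replicate 1. Granulosa cell markers were high in both tissues, with sums of 6032 to 13753 TPM in OST and 6432 to 13422 TPM in GCs, so OST is not free of GC mRNA. In bulk tissue, fewer cells of a type and less RNA per cell cannot be told apart.

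Many of these genes lie in clusters (GRCm38 positions). Chromosome 5 holds 7 Cxcl genes between 90759360 and 95961068, from Cxcl5 to Cxcl13, and chromosome 11 holds 10 Ccl genes between 82035571 and 83664683, from Ccl2 to Ccl4. Chromosome 9 holds 12 receptor genes, Ccr1 and Ccr2 among them.

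The promoters of 3 neighbours on chromosome 5 are shown because 2 of them, Cxcl2 and Cxcl3, had the smallest p-values among the ligands in OST after Sema3E, while Cxcl1, beside them, differed by −0.12 on the log2 scale (SE 0.36). Each run is the 250 bases before the RefSeq start in GRCm38.p6, all on the plus strand, at chr5:90903649-90903898 for Cxcl2, chr5:90785851-90786100 for Cxcl3 and chr5:90890995-90891244 for Cxcl1. Capitals mark matches on either strand to a form of the NF-kappaB motif, GGG followed by any 2 bases and TTTCC.
Cxcl2: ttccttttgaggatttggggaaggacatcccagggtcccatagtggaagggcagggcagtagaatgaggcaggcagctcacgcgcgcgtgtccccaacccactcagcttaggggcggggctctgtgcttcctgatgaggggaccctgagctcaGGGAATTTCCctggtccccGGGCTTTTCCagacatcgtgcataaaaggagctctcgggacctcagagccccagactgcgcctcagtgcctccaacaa
Cxcl3: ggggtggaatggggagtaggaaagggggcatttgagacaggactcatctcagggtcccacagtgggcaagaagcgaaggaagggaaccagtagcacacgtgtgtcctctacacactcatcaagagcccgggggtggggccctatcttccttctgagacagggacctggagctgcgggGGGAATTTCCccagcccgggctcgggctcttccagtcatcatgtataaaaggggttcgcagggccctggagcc
Cxcl1: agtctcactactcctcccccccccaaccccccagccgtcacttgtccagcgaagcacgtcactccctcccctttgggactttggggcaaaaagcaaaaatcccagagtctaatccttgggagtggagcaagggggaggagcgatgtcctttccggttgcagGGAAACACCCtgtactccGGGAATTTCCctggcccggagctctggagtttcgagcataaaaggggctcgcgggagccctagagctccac

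Cxcl2 had matches 97 to 88 and 78 to 69 bases before its start, Cxcl3 had 1 match 73 to 64 bases before, and Cxcl1 had matches 89 to 80 bases before, read on the other strand, and 71 to 62 bases before. The annotation behind the cluster positions starts Cxcl2 at 90903871, inside the run shown. These distances therefore depend on the start used and cannot be compared between the genes. The motif was found in 464 of the 32851 promoters in the RefSeq table (1.41%), and in 5 of the 37 chemokine and receptor genes with an entry (13.5%), the other 2 being Ccl9 and Ccr3. The promoter of Cxcl10, at chr5:92348890-92349139 on the minus strand, is shown because this ligand ranged from 0.42 TPM to 96.8 TPM within GCs. Capitals mark its match to the core of an interferon-stimulated element, GAAA followed by any 2 bases and GAAA on either strand, 213 to 204 bases before the start.
Cxcl10: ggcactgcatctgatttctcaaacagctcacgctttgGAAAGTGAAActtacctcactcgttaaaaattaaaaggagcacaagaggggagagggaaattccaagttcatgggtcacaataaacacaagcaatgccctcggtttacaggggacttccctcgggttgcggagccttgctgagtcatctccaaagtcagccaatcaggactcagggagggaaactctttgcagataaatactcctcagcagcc

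That motif was in 978 of the 32851 promoters (2.98%) and in 2 of the 37 members with an entry (5.41%), Cxcl10 and Cxcl14. For both motifs the share over the RefSeq table counts promoters, while the share of members counts genes. The 2 shares are therefore not like measures. A match is a run of letters and says nothing here of binding.

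Of the 50 genes, 38 were over 1 TPM in at least 1 library, 26 were over 10 TPM and 9 were over 100 TPM. Ligands over 1 TPM numbered 26 of 30, receptors that signal through G proteins 9 of 16 and atypical receptors 3 of 4. The 12 genes at or under 1 TPM in all 12 libraries were Ackr4, Ccl22, Ccl28, Ccr3, Ccr4, Ccr9, Cxcl17, Cxcr1, Cxcr5, Cxcr6, Xcl1 and Xcr1, and the highest value among them was 0.964 TPM. Cxcr1 and Cxcr5, receptors of neutrophils and B cells, and Xcr1, a receptor of cross-presenting dendritic cells, were thus near 0 in both tissues.

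The summed TPM of all 50 genes was 890.1 to 980.2 in OST of Sema3E ovaries and 647 to 1009 in OST of IgG ovaries. In GCs the sum was 816 to 1201 after Sema3E and 882 to 2279.7 after IgG, the top value being GC IgG replicate 1. The ligands alone summed to 632 to 690.1 TPM in OST of Sema3E ovaries and 562 to 634 TPM in OST of IgG ovaries, and to 219 to 412 TPM in GCs of Sema3E ovaries and 120.0 to 1614 TPM in GCs of IgG ovaries. The balance therefore differed by tissue, with most of the summed TPM from ligands in OST libraries and from the receptor Cxcr4 in 5 of 6 GC libraries. The ligand with the highest TPM was Ccl21a in 5 of 6 OST libraries and Cxcl14 in OST IgG replicate 2, and in GCs it was Ccl6 in 5 of 6 libraries and Cx3cl1 in GC IgG replicate 3.

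**Figure D1:**
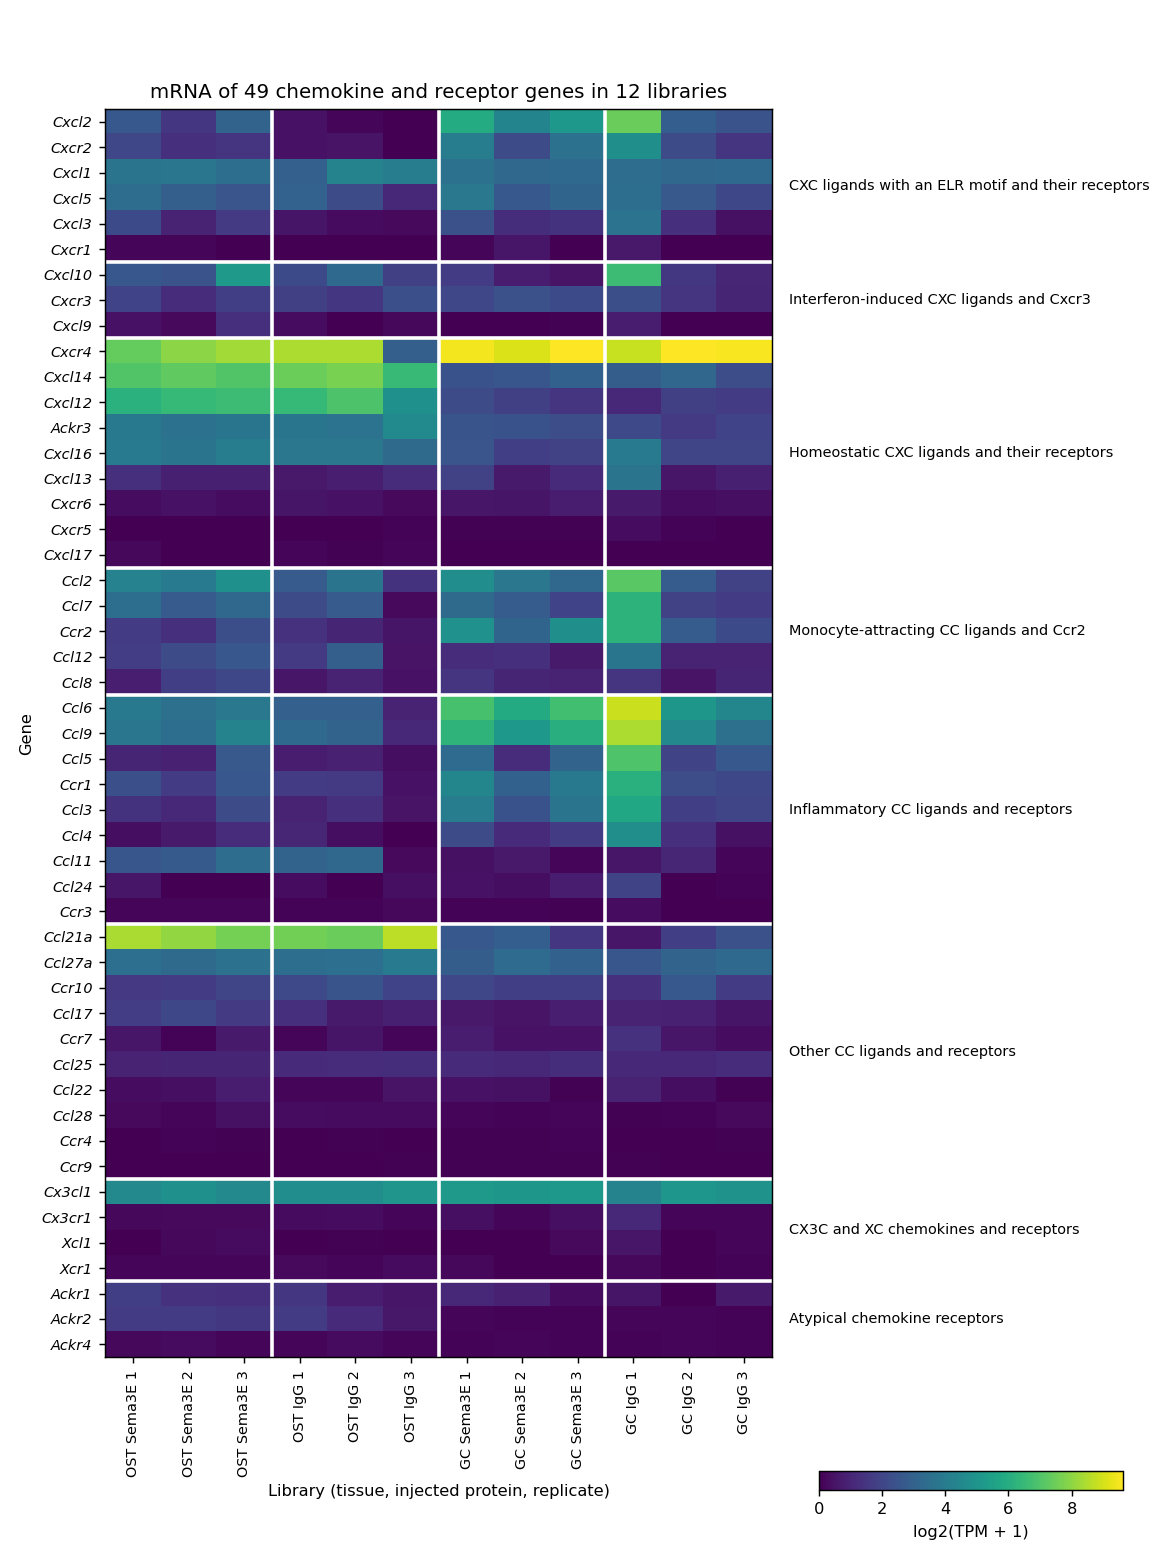
Colour gives log2(TPM + 1) of 49 of the genes (rows, grouped by role) in each of the 12 libraries (columns, 3 for each tissue and injected protein). Cxcr4 is bright in all columns but OST IgG 3, Cxcl12, Cxcl14 and Ccl21a are bright in OST, and GC IgG 1 is brighter than the other GC columns for most inflammatory ligands and their receptors.

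The first question was how the tissues differ. Each gene that exceeded 1 TPM in any of the 6 libraries compared was tested with limma on log2(TPM + 1), so that a difference of 1 is a doubling of TPM + 1 and the change of low genes is understated, and p-values were adjusted over all genes tested. In Sema3E ovaries 35 members passed this filter, and 22 of them had an adjusted p under 0.05 in limma, 11 higher in OST and 11 lower in OST. Over all 15698 genes tested, 28.2% were higher in OST and 17% lower. In IgG ovaries 37 members passed the filter and 4 passed the test, all 4 higher in OST, against 8.34% of all 16627 genes higher and 0.301% lower. The comparison in IgG ovaries holds both libraries that stood apart. Without them, a step added after the data had been seen, 13 of 33 members passed, 7 higher in OST and 6 lower, against 17.4% of all genes higher and 2.9% lower.

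Homeostatic CXC genes gave 4 higher and 1 lower in OST of 6 tested in Sema3E ovaries, against 28.2% and 17% of all genes. Cxcl14, a ligand of epithelium and stroma, had 129, 155 and 128 TPM in OST of Sema3E ovaries (replicates 1, 2 and 3), against 4.33, 5.02 and 6.94 TPM in GCs of the same treatment. In IgG ovaries it had 177, 207 and 88.4 TPM in OST, against 6.15, 8.07 and 3.86 TPM in GCs. The tissues did not overlap under either treatment, with a log2 difference of 4.44 (SE 0.16, adjusted p = 8.97e-06 from limma) in Sema3E ovaries and 4.46 (SE 0.37, adjusted p = 0.00179) in IgG ovaries.

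Cxcl12, the ligand of Cxcr4 made by stromal and endothelial cells, had 70.8, 85.6 and 95.1 TPM in OST of Sema3E ovaries, against 3.69, 2.53 and 1.75 TPM in GCs. It had 87, 121 and 27.7 TPM in OST of IgG ovaries, against 1.11, 2.53 and 2.18 TPM in GCs. The lowest OST value, in OST IgG replicate 3, was still above every GC library. Its log2 difference was 4.56 under both treatments (SE 0.21 and adjusted p = 2.04e-05 in Sema3E ovaries, SE 0.54 and adjusted p = 0.00552 in IgG ovaries, from limma).

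Cxcr4 ran the other way. It had 165, 247 and 313 TPM in OST of Sema3E ovaries, against 705, 564 and 783 TPM in GCs, and the log2 difference was −1.53 (SE 0.24, adjusted p = 0.00306 from limma). In IgG ovaries it had 352, 348 and 6.51 TPM in OST, against 457, 793 and 744 TPM in GCs, so that OST IgG replicate 3 was far under the others. With all libraries Cxcr4 did not pass in IgG ovaries (−2.73, SE 1.46, adjusted p = 0.247 from limma). Without that library and GC IgG replicate 1, left out after the data had been seen, the difference was −1.13 (adjusted p = 0.00755 from limma). In Sema3E ovaries the ligand Cxcl12 was thus higher in OST and its receptor Cxcr4 lower.

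Ackr3, the atypical second receptor of Cxcl12, went with the ligand. It had 13.9, 11.5 and 12.5 TPM in OST of Sema3E ovaries, against 4.67, 4.34 and 3.8 TPM in GCs (log2 difference 1.37, SE 0.10, adjusted p = 0.000133 from limma). In IgG ovaries it had 12.4, 11.8 and 23.1 TPM in OST, against 3.34, 2.14 and 2.88 TPM in GCs (2.10, SE 0.28, adjusted p = 0.00823). Cxcl16, a membrane-bound ligand of Cxcr6, was higher in OST of Sema3E ovaries by 1.84 (SE 0.21, adjusted p = 0.000752), averaging 14.2 ± 1.82 TPM there, against 3.32 ± 1.27 TPM in the GCs (SD, n = 3 per tissue), and did not pass in IgG ovaries (0.99, adjusted p = 0.257 from limma). Cxcl13, a B cell ligand, was at 0.497 to 2.66 TPM in 11 libraries and at 11.9 TPM in GC IgG replicate 1.

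Ccl21a, a ligand of Ccr7 known from lymphatic endothelium, was the member with the largest tissue difference. It had 335, 265 and 195 TPM in OST of Sema3E ovaries, against 5.31, 6.3 and 1.88 TPM in GCs (log2 difference 5.67, SE 0.37, adjusted p = 8e-05 from limma). In IgG ovaries it had 189, 171 and 405 TPM in OST, against 0.506, 2.48 and 4.23 TPM in GCs (6.30, SE 0.53, adjusted p = 0.00179). Its transcript is 99.5% identical to Gm10591 and 99.4% to Gm13304, so its own level is uncertain, while the 3 genes together gave 348 to 728 TPM in OST of Sema3E ovaries and 311 to 778 TPM in OST of IgG ovaries, against 4.18 to 11.2 TPM in GCs of Sema3E ovaries and 2.08 to 6.42 TPM in GCs of IgG ovaries. Ccr7, the receptor, stayed at 0.06 to 0.728 TPM in 11 libraries and 1.6 TPM in GC IgG replicate 1.

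Among the remaining CC genes, Ccl17, a ligand of Ccr4, was higher in OST of Sema3E ovaries by 1.16 (SE 0.16, adjusted p = 0.00183 from limma). In IgG ovaries its tissues overlapped, with a difference of 0.18 (adjusted p = 0.644 from limma). Ccl27a, a ligand of Ccr10 known from skin, had 10.4, 8.93 and 11.2 TPM in OST of Sema3E ovaries, against 6.19, 9.27 and 7.02 TPM in GCs. These values overlap, and Ccl27a did not pass under either treatment. Its copy Gm13306 was at 0.291 TPM or less.

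The atypical receptors Ackr1 and Ackr2, receptors of endothelium that bind many inflammatory ligands, both passed in Sema3E ovaries with more mRNA in OST. Ackr2 had 2.17, 2.28 and 1.95 TPM in OST of Sema3E ovaries, against 0.11, 0.0718 and 0.0744 TPM in GCs (1.53, SE 0.13, adjusted p = 0.000198 from limma). In IgG ovaries it had 2.29, 1.3 and 0.549 TPM in OST, against 0.0993, 0.107 and 0.0733 TPM in GCs, and did not pass there with all libraries (1.05, adjusted p = 0.0806). Ackr1, at 1.48 to 2.49 TPM in OST of Sema3E ovaries and 0.254 to 1.12 TPM in GCs, differed by 0.72 (SE 0.24, adjusted p = 0.0462), and by 0.54 in IgG ovaries (adjusted p = 0.308 from limma).

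Of 8 inflammatory CC genes tested in Sema3E ovaries, 6 were lower in OST and 1 higher, against 17% and 28.2% of all genes. None of these 6 stayed past the threshold with 1 fit over all 12 libraries. Ccl6, a macrophage and neutrophil ligand of Ccr1, had 13.8, 10.8 and 13.6 TPM in OST of Sema3E ovaries, against 113, 58.2 and 103 TPM in GCs (log2 difference −2.70, SE 0.25, adjusted p = 0.000336 from limma). Ccl9, its neighbour on chromosome 11, had 12.7, 10.3 and 18.6 TPM in OST, against 76.5, 34.3 and 65.8 TPM in GCs (−1.97, SE 0.33, adjusted p = 0.004). Ccl3, Ccl4 and Ccr1 had differences of −1.85 to −0.94. Ccl11, the eosinophil ligand eotaxin, was the exception, at 4.95, 5.66 and 9.77 TPM in OST of Sema3E ovaries, against 0.363, 0.578 and 0.138 TPM in GCs (2.48, SE 0.25, adjusted p = 0.000433).

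In IgG ovaries Ccl3, Ccl4, Ccl6, Ccl9, Ccl11 and Ccr1 did not pass with all libraries, and Ccl6 had 6.79, 6.84 and 0.914 TPM in OST, against 467, 33.2 and 20.7 TPM in GCs (−3.85, SE 1.20, adjusted p = 0.0958 from limma). The direction was shared by all GC libraries, but replicate 1 was over 10 times the other 2. Without both libraries that stood apart, Ccl6 (−1.80, adjusted p = 0.0191) and Ccl11 (2.53, adjusted p = 0.0182) passed in IgG ovaries as well.

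In the monocyte group, Ccr2, the receptor of Ccl2, had 2.29, 1.52 and 3.92 TPM in OST of Sema3E ovaries, against 28.2, 7.61 and 27 TPM in GCs (−2.48, SE 0.50, adjusted p = 0.00823 from limma). In IgG ovaries Ccr2 differed by −2.75 and did not pass (adjusted p = 0.132 from limma). Ccl12, another ligand of Ccr2, was higher in OST by 1.14 (SE 0.26, adjusted p = 0.0129) but had a difference of −0.17 in IgG ovaries (SE 0.93, adjusted p = 0.906 from limma), while Ccl2, Ccl7 and Ccl8 did not pass. Ccl2 had 18.3, 14.4 and 27.8 TPM in OST of Sema3E ovaries, against 25.4, 13.1 and 8.67 TPM in GCs, values that overlap.

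The neutrophil genes gave 2 of 5 tested lower in OST of Sema3E ovaries and 0 higher, against 17% and 28.2% of all genes. Cxcl2, a ligand of Cxcr2, had 5.24, 1.89 and 7.33 TPM in OST, against 60, 19.1 and 33.9 TPM in GCs (−2.72, SE 0.51, adjusted p = 0.00602 from limma). Cxcr2 had 3.12, 1.44 and 1.75 TPM in OST, against 16, 3.56 and 11 TPM in GCs (−1.69, SE 0.48, adjusted p = 0.0284). In IgG ovaries neither passed with all libraries, with Cxcl2 at −4.05 (adjusted p = 0.0924 from limma) and Cxcr2 at −2.53 (adjusted p = 0.1). The ligands Cxcl1, Cxcl3 and Cxcl5 overlapped between the tissues, Cxcl1 averaging 11.7 ± 1.33 TPM in OST, against 9.6 ± 1.59 TPM in the GCs (SD, n = 3 per tissue). Summed neutrophil markers overlapped, at 46.6 to 181 TPM in OST of Sema3E ovaries and 112 to 483 TPM in GCs, for 11 of 12 markers in the file, with S100a8 and S100a9 making up most of the sums. Of 10 neutrophil markers tested, 2 were lower in OST and 1, Ltf (0.88, adjusted p = 0.00763 from limma), was higher, with 7 negative and 3 positive differences in all. The share lower was near the 17% of all genes, while 28.2% of all genes were higher. Summed macrophage and monocyte markers were 233 to 348 TPM in OST and 278 to 639.7 TPM in GCs. Their part in the result was not tested.

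Cx3cl1, the membrane-bound ligand fractalkine, had 22.3, 27.3 and 22.4 TPM in OST of Sema3E ovaries, against 35.5, 33.4 and 34.1 TPM in GCs (−0.50, SE 0.10, adjusted p = 0.00615 from limma). In IgG ovaries its tissues overlapped, at 25.4, 25.7 and 31.2 TPM in OST and 19, 32.6 and 29.8 TPM in GCs. Its receptor Cx3cr1 was at 0.0923 to 1.13 TPM in all 12 libraries.

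The calls in Sema3E ovaries differed in how far they rested on 1 library. Leaving out any 1 library left 15 of the 22 calls in place, those of Cxcl12, Cxcl14, Cxcr4, Ccl6 and Cxcl2 among them. With 1 fit over all 12 libraries, however, 8 members were higher in OST and 0 lower. All 11 calls lower in OST, those of Cxcr4, Ccl6 and Cxcl2 among them, were thus lost. Over all 15698 genes that fit gave 2859 higher in OST and 1273 lower. Cxcr2 was lost without GC Sema3E replicate 1 or 3 or OST Sema3E replicate 2 or 3 (adjusted p = 0.0643 to 0.0843 from limma). Ccl3 and Ccl4 were lost without GC Sema3E replicate 1 or 3 or OST Sema3E replicate 1 or 2 (0.052 to 0.0638 for Ccl3 and 0.103 to 0.124 for Ccl4). Ccr1 was lost without GC Sema3E replicate 3 or OST Sema3E replicate 2 (0.0564 and 0.0581). Cxcl10, higher in OST by 2.42 (SE 0.75, adjusted p = 0.0374 from limma) with 5.09, 4.49 and 35.2 TPM in OST, against 2.28, 0.71 and 0.42 TPM in GCs, was lost without GC Sema3E replicate 2 or 3 (0.0937 and 0.1). In IgG ovaries its difference was −0.64 (SE 1.43, adjusted p = 0.772 from limma). Ackr1 was lost without any 1 library other than GC Sema3E replicate 1 (0.0603 to 0.128).

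**Figure D2:**
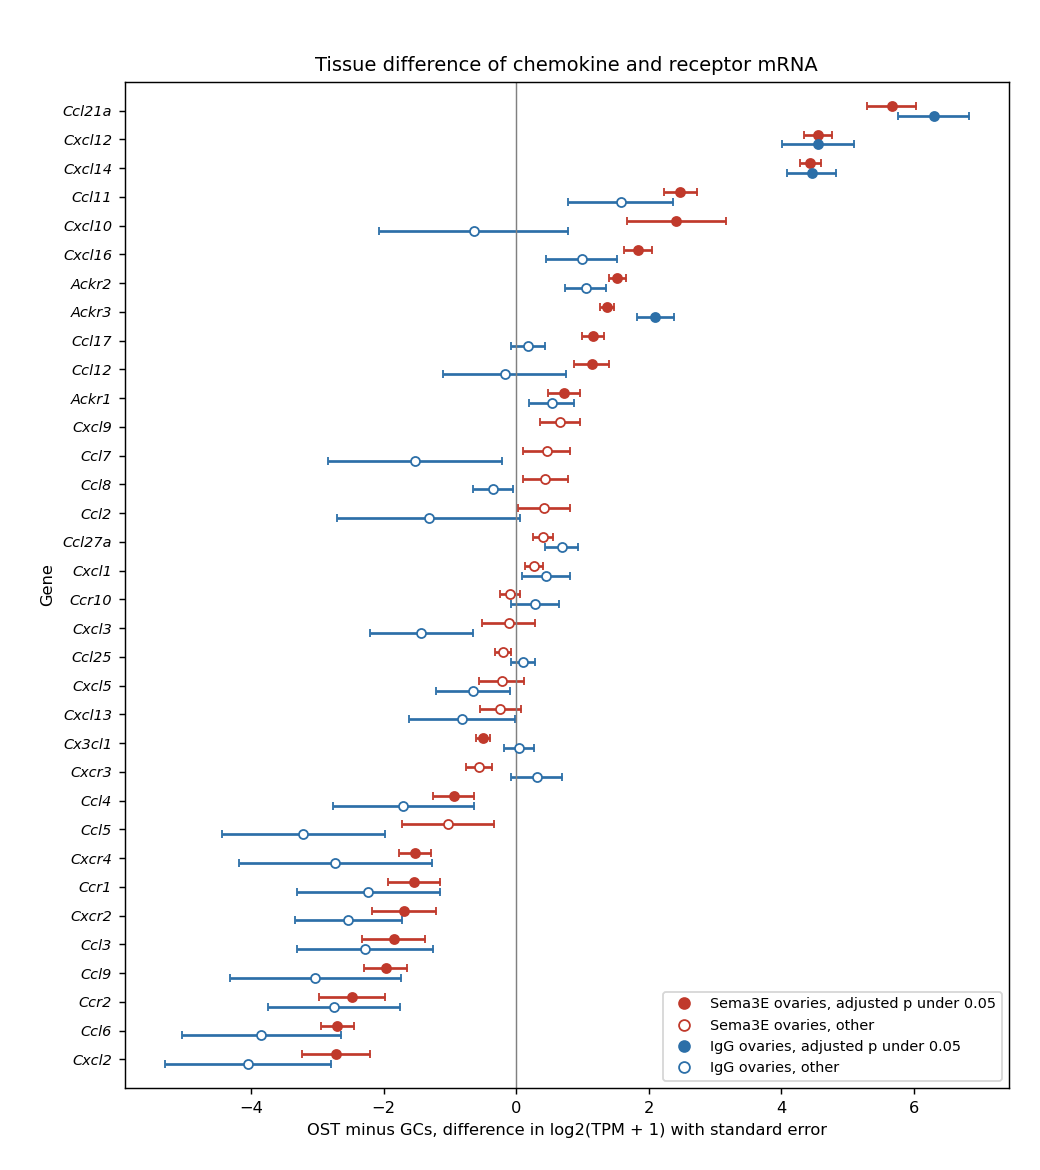
Each row is 1 of 34 genes tested in Sema3E ovaries, the horizontal axis gives OST minus GCs as a difference in log2(TPM + 1), and bars are standard errors from limma, in red for Sema3E ovaries and blue for IgG ovaries, filled where the adjusted p was under 0.05. Ccl21a, Cxcl12 and Cxcl14 lie at 4.44 and above under both treatments, and the bars of IgG ovaries are wider for most inflammatory genes.

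The second question was how OST of Sema3E ovaries differed from OST of IgG ovaries. By limma, 0 of the 35 members tested and 0 of the 16273 genes (0%) had an adjusted p under 0.05. At an unadjusted p under 0.05, 8 members were higher after Sema3E and 0 lower, against 1.68% of all genes higher and 13.2% lower. Cxcl2, Cxcl3, Cxcr2 and Ccl8, among these 8, were under 1 TPM in every IgG library and entered the test only through Sema3E libraries. With no filter on TPM, 7 of 50 members were higher and 0 lower, against 374 and 2535 of all 23125 genes. Among the 35 members that passed the filter, positive differences were seen in 27 and negative ones in 8. Their median was 0.54, against −0.18 over all genes. In 7 members each Sema3E library was above each IgG library, against 3.67% of all genes, and in 1 member each was below, against 29.9% of all genes. That member was Ccl25, the thymus-type ligand of Ccr9, with 0.89, 1 and 1.02 TPM in Sema3E OST, against 1.3, 1.36 and 1.37 TPM in IgG OST. The median of all genes is moved by scaling: with libraries scaled by median ratios it was −0.02, and 10 members were then higher at an unadjusted p under 0.05, against 5.49% of all genes, and 0 lower.

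The neutrophil genes had the smallest p-values. Cxcl2 had 5.24, 1.89 and 7.33 TPM in Sema3E OST, against 0.394, 0.0973 and 0 TPM in IgG OST. The lowest Sema3E value was above the highest IgG value, and the log2 difference was 2.21 (SE 0.41, adjusted p = 0.332 from limma). Cxcl3 had 3.45, 0.933 and 2.13 TPM in Sema3E OST, against 0.466, 0.23 and 0.181 TPM in IgG OST (1.22, SE 0.33, adjusted p = 0.332).

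Their receptor Cxcr2 had 3.12, 1.44 and 1.75 TPM in Sema3E OST, against 0.375, 0.416 and 0 TPM in IgG OST, again with no overlap (1.27, SE 0.27, adjusted p = 0.332 from limma). Cxcl1, their neighbour on chromosome 5, had 12.1, 12.9 and 10.3 TPM in Sema3E OST, against 6.67, 18.9 and 16.1 TPM in IgG OST. These values overlap fully. Cxcl5 had 9.98, 6.63 and 4.87 TPM in Sema3E OST, against 7.08, 3.73 and 1.12 TPM in IgG OST, and the groups overlap.

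The sum of neutrophil markers was higher too, at 181, 46.6 and 67.1 TPM in Sema3E OST, against 14.8, 20.5 and 4.97 TPM in IgG OST. S100a8 and S100a9 made up most of it in Sema3E OST. Single markers differed, with 8 positive and 1 negative differences among those tested. Ltf overlapped, at 1.36, 0.917 and 1.66 TPM in Sema3E OST, against 0.752, 1.36 and 2.05 TPM in IgG OST. Of 9 neutrophil markers tested, 5 were higher at an unadjusted p under 0.05 and 0 lower, against 1.68% and 13.2% of all genes. In 6 of them each Sema3E library was above each IgG library, against 3.67% of all genes. S100a9 differed by 2.88 and Csf3r by 0.99 on the log2 scale (adjusted p = 0.332 from limma for each). Csf3r was at 0.191 to 0.355 TPM in IgG OST, so it entered the test only through Sema3E libraries. The defining marker Ly6g was at 0 to 0.239 TPM in all 6 OST libraries. The part of neutrophil markers in the Cxcl2, Cxcl3 and Cxcr2 values was not tested. Markers of the ovarian surface epithelium also differed, with sums of 327, 277 and 321 TPM in Sema3E OST, against 240.0, 189 and 214 TPM in IgG OST. Of 6 tested, 4 keratin genes were higher at an unadjusted p under 0.05, with Krt18 at 0.92, and 1, Upk3b, was lower (−0.88) (adjusted p = 0.332 from limma for all 5). The shares over all genes were again 1.68% higher and 13.2% lower. Their part in the chemokine values was not tested.

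Among monocyte genes, Ccl2 had 18.3, 14.4 and 27.8 TPM in Sema3E OST, against 5.77, 11.9 and 1.68 TPM in IgG OST (1.73, SE 0.57, adjusted p = 0.332 from limma). Ccl8, also a ligand of Ccr2, had 0.767, 2.42 and 3.24 TPM in Sema3E OST, against 0.505, 0.872 and 0.393 TPM in IgG OST (0.90, SE 0.35, adjusted p = 0.333). Ccr2 had 2.29, 1.52 and 3.92 TPM in Sema3E OST, against 1.62, 1.01 and 0.465 TPM in IgG OST (0.80, SE 0.33, adjusted p = 0.333). Groups were separate for Ccl2 and overlapped for Ccl8 and Ccr2.

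In the same group Ccl7 had 10.1, 5.76 and 8.51 TPM in Sema3E OST, against 3.75, 5.77 and 0.175 TPM in IgG OST, and Ccl12 overlapped too. All 5 genes of the group had positive differences, with a median of 0.90. The summed macrophage and monocyte markers were 233 to 348 TPM in Sema3E OST and 155 to 236 TPM in IgG OST. Of 11 tested, 0 reached an unadjusted p under 0.05, against 1.68% of all genes higher and 13.2% lower. Their differences were positive in 8 and negative in 3.

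Among inflammatory CC genes, Ccl6 had 13.8, 10.8 and 13.6 TPM in Sema3E OST, against 6.79, 6.84 and 0.914 TPM in IgG OST, with no overlap (1.48, SE 0.56, adjusted p = 0.332 from limma). Ccl9 had 12.7, 10.3 and 18.6 TPM in Sema3E OST, against 8.89, 7.43 and 1.11 TPM in IgG OST, also without overlap, and did not reach an unadjusted p under 0.05. Of the 8 genes of this group tested, all 8 had positive differences, with a median of 0.80. Ccl17 had 2.35, 3.3 and 2.09 TPM in Sema3E OST, against 1.54, 0.635 and 0.801 TPM in IgG OST (0.86, SE 0.23, adjusted p = 0.332).

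Cxcl10, an interferon-induced ligand, had 5.09, 4.49 and 35.2 TPM in Sema3E OST, against 3.5, 8.85 and 2.54 TPM in IgG OST. Only replicate 3 of Sema3E stood above all IgG libraries, and the log2 difference of 0.98 (SE 0.80, adjusted p = 0.503 from limma) was close to its error. Cxcl9, induced by the same signals, also peaked in that library, at 1.51 TPM, against 0 to 0.368 TPM in the other 5 OST libraries. Their receptor Cxcr3 had 2.83, 1.31 and 2.42 TPM in Sema3E OST, against 2.58, 1.91 and 4.06 TPM in IgG OST.

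The homeostatic genes with high TPM did not separate by treatment in OST, as Cxcl12 averaged 83.9 ± 12.2 TPM in Sema3E OST and 78.7 ± 47.4 TPM in IgG OST (SD, n = 3 each). Cxcl14 averaged 138 ± 15.3 TPM in Sema3E OST and 158 ± 61.8 TPM in IgG OST (SD, n = 3 each). Cxcr4 averaged 242 ± 74.3 TPM in Sema3E OST and 235 ± 198 TPM in IgG OST (SD, n = 3 each). The IgG spread came from replicate 3, and without it the differences of Cxcr4, Cxcl12, Ccl11 and Ccl12, positive with all libraries, had the other sign, with Cxcr4 at −0.58 in place of 1.27.

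Without OST IgG replicate 3, 8 members were higher at an unadjusted p under 0.05, against 3.32% of all genes, and 2 lower, Cxcl14 (−0.48) and Ccr10 (−0.53), against 16.8% of all genes. By separation there were 9 members higher, against 7.04% of all genes, and 4 lower, against 42.7%. Cxcl2 then differed by 2.10 (SE 0.45), and Ccl8 and Ccr2 no longer reached an unadjusted p under 0.05, while Ccl7 (0.66) and Ccl9 (0.67) did. The median over members was 0.35, against −0.16 over all genes.

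Leaving out other OST libraries moved the count of 8. It was 12 without OST IgG replicate 1, against 2.72% of all genes, 5 without OST Sema3E replicate 1, against 1.27%, and 4 without OST Sema3E replicate 3, against 0.909%. Cxcl2, Cxcl3, Cxcr2 and Ccl17 were among the members counted whichever library was left out, while Ccl2, Ccl6, Ccl8 and Ccr2 were each lost without at least 1 of the Sema3E libraries. With 1 fit over all 12 libraries, the count was 2, Ccl17 and Ccl8, against 1.73% of all genes.

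**Figure D3:**
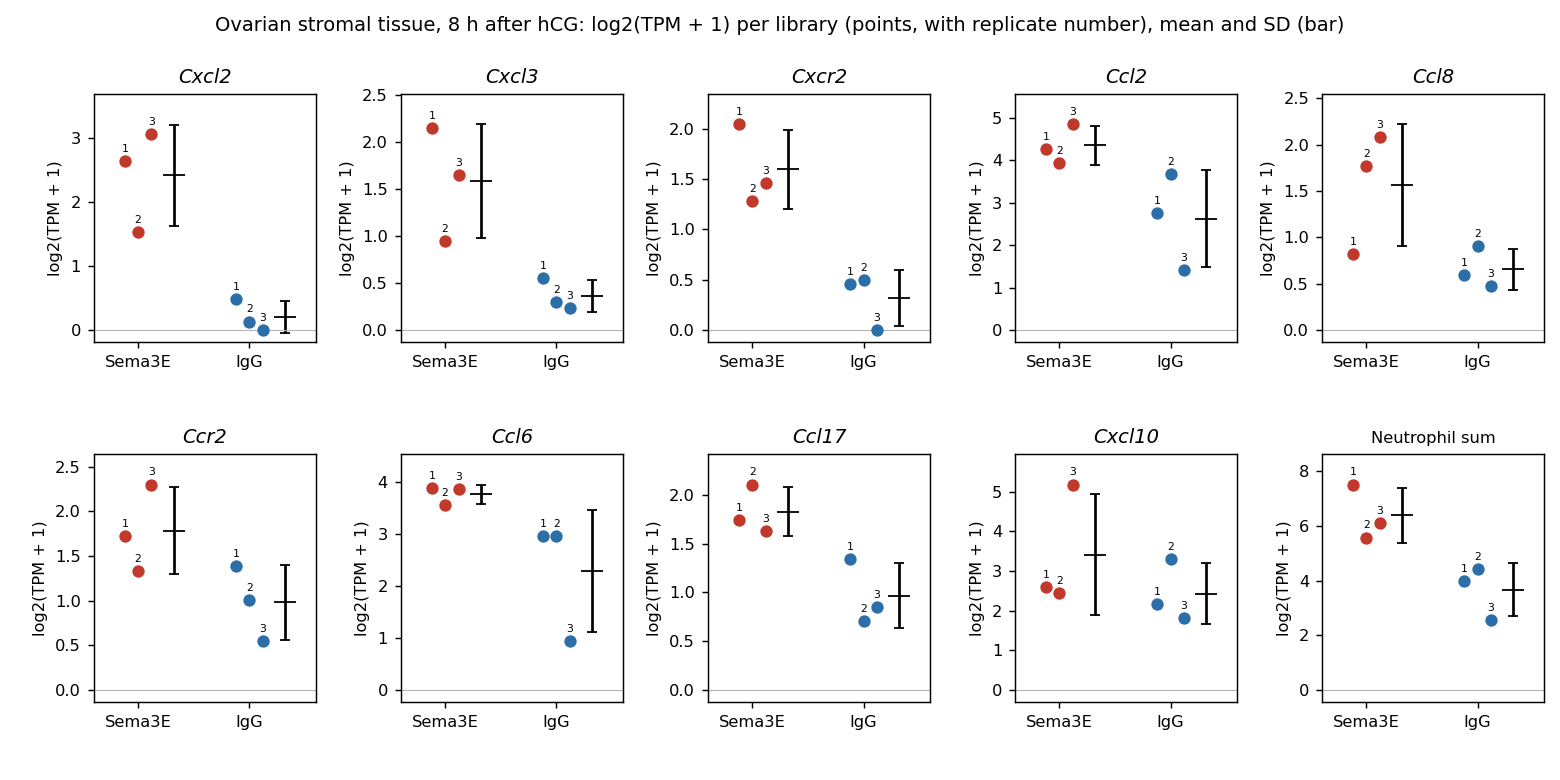
Points give log2(TPM + 1) in each OST library, numbered by replicate, for 9 genes and for the sum of the neutrophil markers, with Sema3E in red on the left and IgG in blue on the right, and bars give the mean and SD. Cxcl2, Cxcl3, Cxcr2, Ccl2, Ccl6, Ccl17 and the neutrophil sum do not overlap between groups, while Cxcl10 is high in Sema3E replicate 3 alone.

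In GCs, none of the 35 members tested passed an adjusted p under 0.05 in limma after Sema3E, against 10 of 15128 genes (0.0661%). At an unadjusted p under 0.05 there was 1 member higher, against 4.03% of all genes, and 0 lower, against 1.08%. By separation, 2 members were higher, Ackr3 and Cx3cl1, against 8.99% of all genes, and 0 lower, against 2.05%. The median difference was 0.06 over members and 0.06 over all genes.

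Ackr3 had 4.67, 4.34 and 3.8 TPM in Sema3E GCs, against 3.34, 2.14 and 2.88 TPM in IgG GCs (log2 difference 0.49, SE 0.16, adjusted p = 0.908 from limma). Cx3cl1 had 35.5, 33.4 and 34.1 TPM in Sema3E GCs, against 19, 32.6 and 29.8 TPM in IgG GCs (0.36, SE 0.20). The Cx3cl1 groups are separate by a narrow margin, the 2 upper IgG values lying just under the Sema3E values. Cxcr4, the receptor with the highest TPM, averaged 684 ± 111 TPM in Sema3E GCs and 665 ± 182 TPM in IgG GCs (SD, n = 3 each), a difference well inside the spread. Ackr3 no longer reached an unadjusted p under 0.05 without GC Sema3E replicate 1 (0.43), GC Sema3E replicate 2 (0.47) or GC IgG replicate 2 (0.36), nor with libraries scaled by median ratios (0.42).

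For inflammatory genes the GC comparison turned on 1 library. Cxcl2 had 60, 19.1 and 33.9 TPM in Sema3E GCs, against 170, 6.44 and 4.51 TPM in IgG GCs. Ccl2 had 25.4, 13.1 and 8.67 TPM in Sema3E GCs, against 144, 5.98 and 2.6 TPM in IgG GCs. Each Sema3E library lay between GC IgG replicate 1 above and GC IgG replicates 2 and 3 below.

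The same order held for Ccl6, at 113, 58.2 and 103 TPM in Sema3E GCs, against 467, 33.2 and 20.7 TPM in IgG GCs. Ccl9 had 76.5, 34.3 and 65.8 TPM in Sema3E GCs, against 345, 22.3 and 10.8 TPM in IgG GCs. Ccr2 had 28.2, 7.61 and 27 TPM in Sema3E GCs, against 73.4, 5.91 and 3.53 TPM in IgG GCs. Macrophage and monocyte markers kept this order too, with sums of 639.7, 278 and 535 TPM in Sema3E GCs, against 2944, 204 and 238 TPM in IgG GCs. So did neutrophil markers, with sums of 483, 112 and 307 TPM in Sema3E GCs, against 729.9, 75 and 51 TPM in IgG GCs.

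Other genes were high in GC IgG replicate 1 without that order. Ccl5, a ligand of T cells and monocytes, had 9.19, 1.35 and 7.44 TPM in Sema3E GCs, against 124, 2.95 and 5.31 TPM in IgG GCs. Cxcl10 had 2.28, 0.71 and 0.42 TPM in Sema3E GCs, against 96.8, 1.97 and 1.03 TPM in IgG GCs, a log2 difference of −2.07 (SE 1.62, adjusted p = 0.999 from limma) that rests on replicate 1. Some members did not follow this library at all, as Cxcl1 was at 11.4, 8.65 and 8.71 TPM in Sema3E GCs, against 9.99, 8.56 and 8.82 TPM in IgG GCs.

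Without GC IgG replicate 1, 10 of 32 members were higher after Sema3E at an unadjusted p under 0.05, against 5.45% of all genes. At that threshold 0 members were lower, against 771 of all 14851 genes. Cxcr3, Cxcl2, Ccl6, Ackr3, Ccl9, Ccl2 and Ccr2 were among them, with Cxcl2 at 2.45 (SE 0.47, adjusted p = 0.357 from limma), and 0 passed an adjusted p under 0.05. By separation 12 members were higher, against 13.5% of all genes, and 0 lower, against 2606 of all 14851 genes. The median was 0.48 over members and −0.02 over all genes, and 26 differences were positive and 6 negative. With 2 IgG libraries left, the spread of this group rests on a single pair. Without GC IgG replicate 3 in place of replicate 1, 12 differences were positive and 23 negative, with a median of −0.34 over members and 0.12 over all genes, and Ccl2 (−1.05), Ccl6 (−0.51), Ccl9 (−0.66), Ccr2 (−0.24) and Cxcl2 (−0.03) were negative. Neutrophil markers summed to 112 to 483 TPM in Sema3E GCs, against 75 and 51 TPM in IgG replicates 2 and 3 and 729.9 TPM in IgG replicate 1. Their part in these values was not tested, nor was that of the other leukocyte markers.

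**Figure D4:**
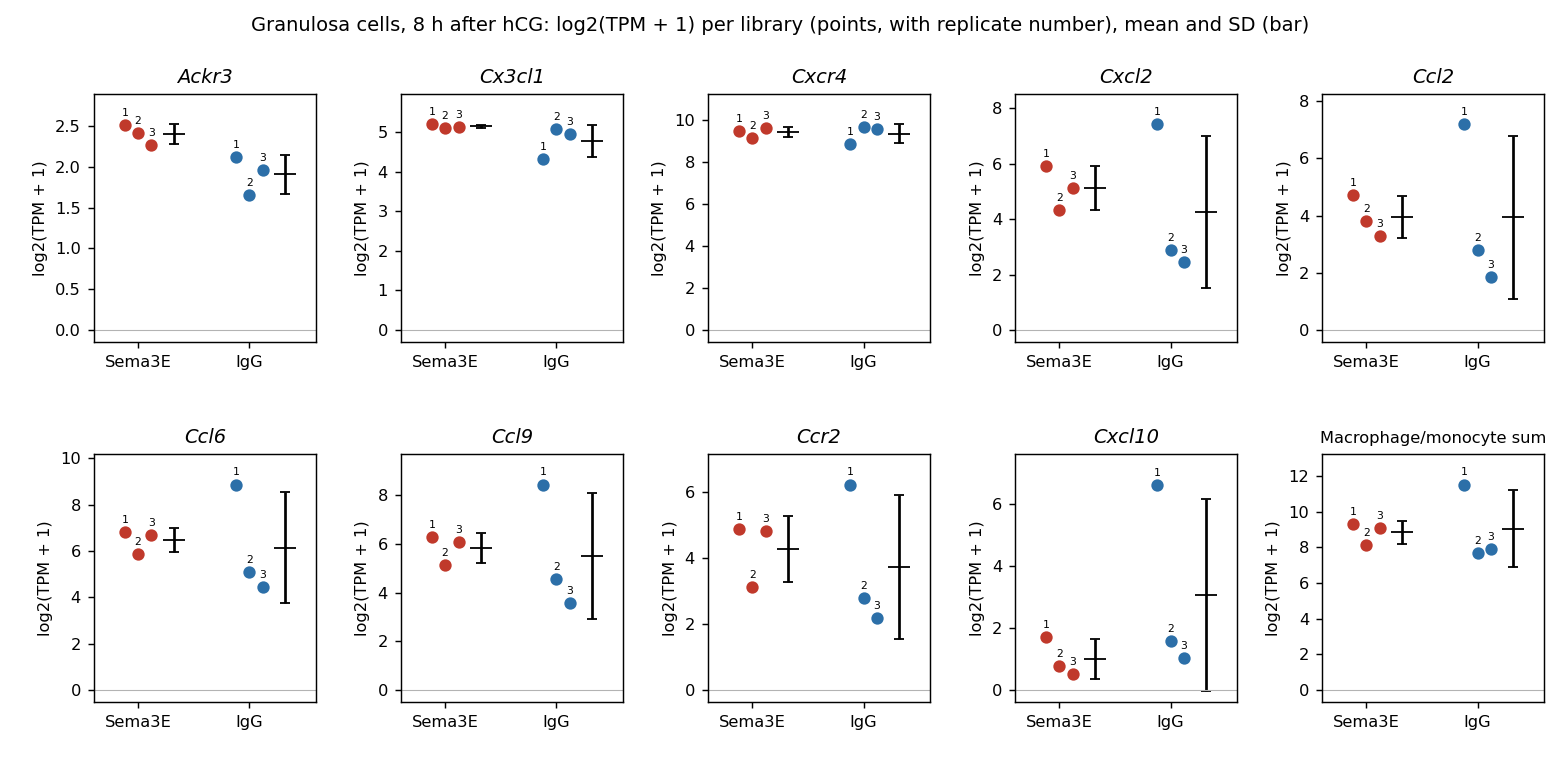
Points give log2(TPM + 1) in each GC library, numbered by replicate, for 9 genes and for the sum of the macrophage and monocyte markers, with Sema3E in red on the left and IgG in blue on the right, and bars give the mean and SD. For Cxcl2, Ccl2, Ccl6, Ccl9, Ccr2 and the marker sum, IgG replicate 1 is the highest point and IgG replicates 2 and 3 lie under the 3 Sema3E points.

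**Figure D5:**
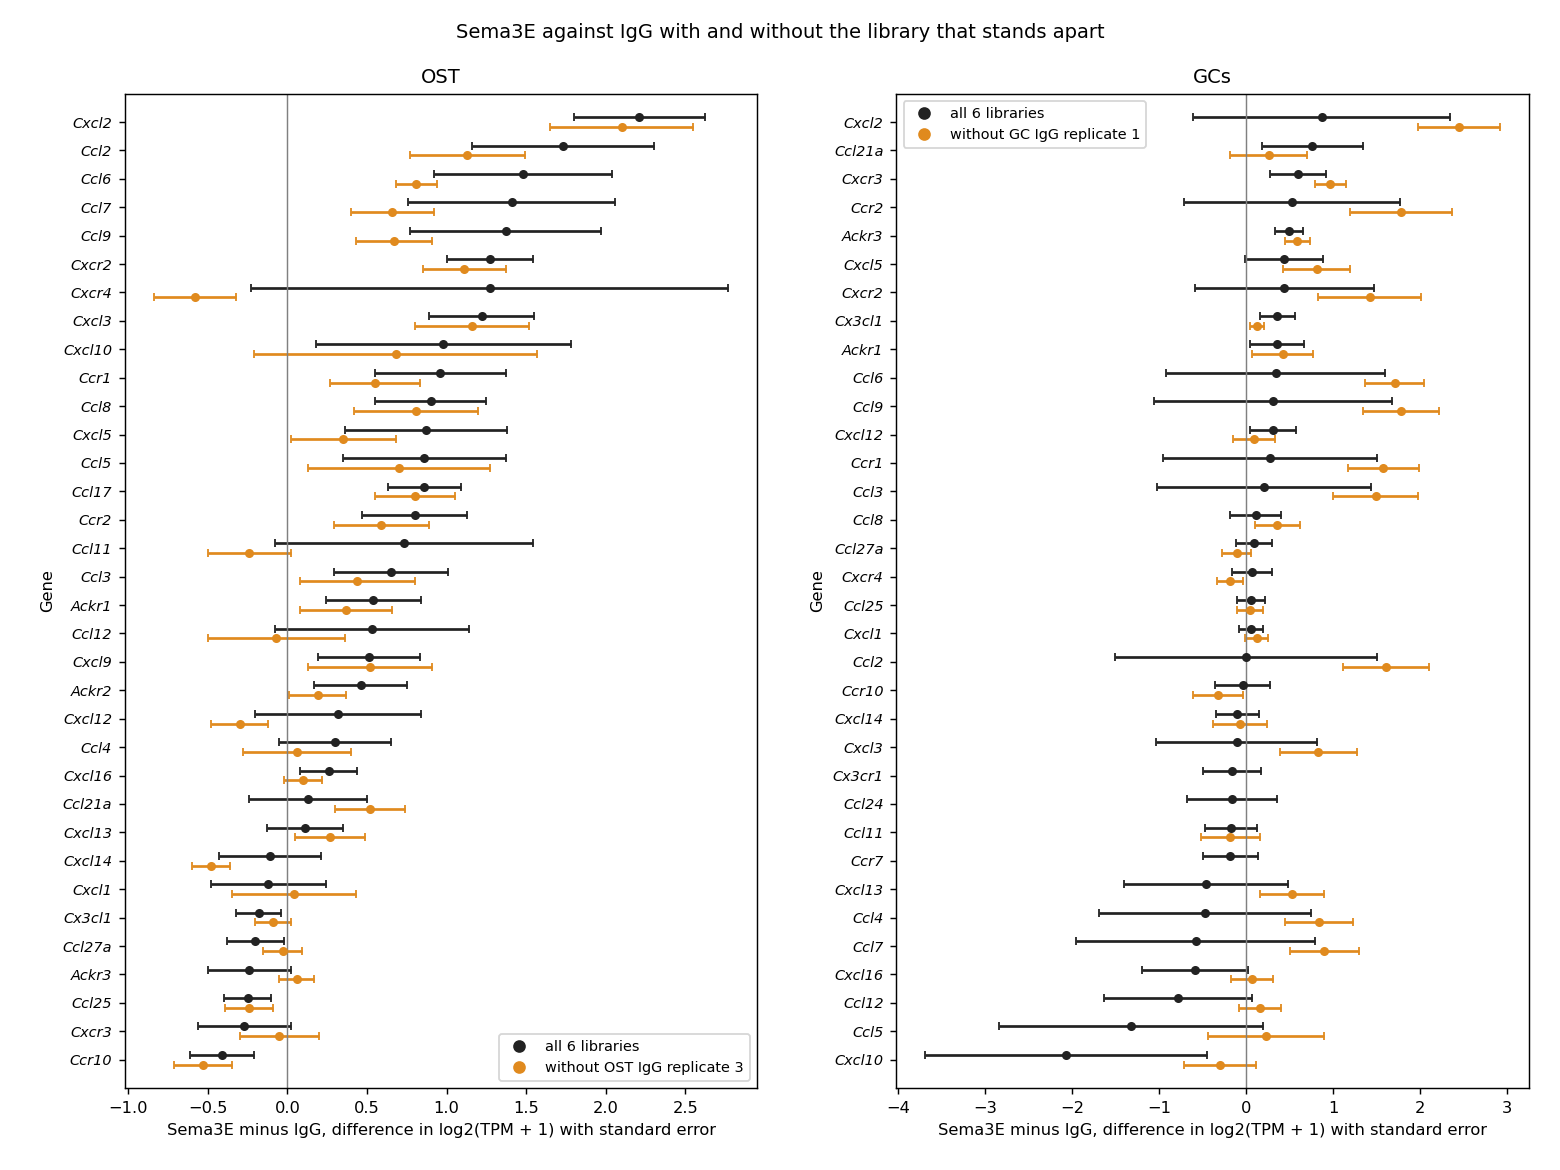
Rows are 34 of the members tested in each tissue, and the horizontal axis gives Sema3E minus IgG as a difference in log2(TPM + 1) with standard errors, in black with all 6 libraries and in orange without the library that stood apart (OST IgG replicate 3 on the left, GC IgG replicate 1 on the right). Leaving out the library narrows most bars, and moves Cxcl2 in GCs to 2.45 and Cxcr4 in OST to −0.58, while Cxcl2 in OST stays at 2.10.

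The difference between the Sema3E effects in OST and in GCs was tested as an interaction over the 12 libraries. None of the 38 members tested passed an adjusted p under 0.05 in limma, nor did any of 16903 genes (0%). At an unadjusted p under 0.05, 1 member had a more positive effect in OST, against 1.41% of all genes, and 1 a more negative one, against 16.9%. The 2 members were Ccl17 (0.98, SE 0.29, adjusted p = 0.199 from limma) and Ackr3 (−0.72, SE 0.32, adjusted p = 0.264). The median over members was 0.63 with all libraries and −0.26 without the pair that stood apart, so its sign depended on these 2 libraries. The comparisons share libraries, so their values are not independent.

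Genes around the chemokine system were read from 3 lists of 59 genes. Of 7 chemokine-like genes tested with names outside the rule, 2 were higher in OST after Sema3E at an unadjusted p under 0.05. The share over all genes was 1.68%. The 2 were Pf4 and Ppbp, CXC chemokines of platelets, at 0.62 and 1.26 (adjusted p = 0.332 and 0.333 from limma). Gpr182, an atypical chemokine receptor of endothelium, was higher in OST than in GCs by 2.30 in Sema3E ovaries (adjusted p = 4.72e-05 from limma) and by 2.12 in IgG ovaries (adjusted p = 0.0198). Cklf, which encodes a chemokine-like factor, was lower in OST of Sema3E ovaries (−0.73, adjusted p = 0.00661).

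Among signalling genes below the receptors, 3 of 26 were higher in OST after Sema3E at an unadjusted p under 0.05, against 1.68% of all genes. They were Rgs16, which shuts off G proteins (0.76), and the haematopoietic genes Rac2 (0.76) and Was (0.45), none past an adjusted p under 0.05 in limma. Between tissues of Sema3E ovaries 7 were higher in OST and 6 lower of 28, shares near the 28.2% and 17% over all genes, with Rgs16 at 2.06 and the leukocyte genes Rac2 at −1.66 and Rgs1 at −1.47. In GCs after Sema3E, 0 of 28 reached an unadjusted p under 0.05, against 4.03% of all genes higher and 1.08% lower.

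Among NF-kappaB and interferon regulators, 0 of 20 reached an unadjusted p under 0.05 in OST after Sema3E, where Irf7 had a difference of 1.64. Over all genes 1.68% were higher there and 13.2% lower. In GCs 1 of 20 did, Il1r1, the receptor of interleukin-1 (0.38), a share near the 4.03% of all genes higher there. Between tissues of Sema3E ovaries 6 of 20 were higher in OST and 2 lower, set against the same 28.2% and 17%, with Tnfrsf1a at 0.94 and Il1r1 at −0.97. In IgG ovaries 0 of 20 passed an adjusted p under 0.05 in limma, against 8.34% of all genes higher and 0.301% lower.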

How the data were processed

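Bulk RNA-seq of 12 libraries was used. By the authors' account, reads were aligned with HISAT2 (2.0.5) to GRCm38 and counted with featureCounts (1.5.0-p3), and TPM per gene was deposited. The lowest TPM above 0 was 8.44e-46, and the sources used here do not give the origin of such values. The submitters' processing notes also name edgeR (1.3.3). TPM hold no depth, so counting error is unknown. For reads shared by near-identical genes, the rule of division is not given in the sources. Gene positions come from GENCODE M21, matched by identifier, and sequences from RefSeq, since the file's coordinates mostly differ from GRCm38.

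Each gene that exceeded 1 TPM in any library of a comparison was tested with limma (3.58.1, R 4.3.3) on log2(TPM + 1) with trend and robust estimation and Benjamini-Hochberg adjustment over all genes, separately for each of 5 comparisons. The test was checked on simulated data. Members and lists were chosen with earlier results of these data known. Values per library are given for members past a threshold, for the 3 with the highest TPM in each role list and for Cxcl10. Copies were sought with blastn (2.17.0) at 95% identity over 80% of the shorter transcript. Python (3.11.15) was used with pandas (2.3.3) and numpy (2.4.6) for tables. The alternatives were another pseudocount (0.1), no filter, other scalings, limma without its robust option, removal of globin and mitochondrial genes, 1 fit over all 12 libraries, a replicate block and each library left out. Leaving out both GC IgG replicate 1 and OST IgG replicate 3 was added after the data had been seen. Chemokine genes without a row in the table, among them Ccl19, Ccl20 and Ccr6, were not analysed here. The results for some genes are not reported here.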

Additional observations from a re-analysis of the deposited data

How the results depend on the processing

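Members at an adjusted or unadjusted p under 0.05 with all libraries of a comparison kept their direction under the alternatives run. Those that reached it in GCs only without GC IgG replicate 1 did not all do so, as Ccl2, Ccl6, Ccl9, Ccr2 and Cxcl2 were negative without GC IgG replicate 3. With all 12 libraries in 1 fit, GCs had 0 genes past an adjusted p under 0.05 after Sema3E, in place of 10, and 0 members higher at an unadjusted p under 0.05, in place of 1, OST had 2 such members in place of 8, the tissues of Sema3E ovaries 4132 genes and 8 members in place of 7092 and 22, and those of IgG ovaries 5250 genes and 12 members in place of 1437 and 4. In GCs members higher at an unadjusted p under 0.05 numbered 2 with no filter, 0 with scaling by median ratios and 2 without globin and mitochondrial genes. IgG ovaries had 915 genes past the threshold between tissues with scaling by median ratios and 893 without globin and mitochondrial genes. Scaling by median ratios split the genes at an unadjusted p under 0.05 into 633 higher and 546 lower in GCs, in place of 609 and 164, and into 893 and 685 in OST, in place of 273 and 2152. Between tissues it gave 4398 and 3855 past the adjusted threshold in Sema3E ovaries, in place of 4425 and 2667, and 756 and 159 in IgG ovaries, in place of 1387 and 50, and without globin and mitochondrial genes Sema3E ovaries gave 2996 and 6071. The cause was not tested.

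Leaving out 1 library gave 6 to 25 genes and 0 to 10 higher members in GCs, 0 to 11 genes and 4 to 12 higher members in OST, 16 to 21 members between tissues of Sema3E ovaries and 501 to 1905 genes between tissues of IgG ovaries. The 10 members in GCs came without GC IgG replicate 1 and the 11 genes in OST without OST IgG replicate 3. Without both, an alternative chosen after seeing the data, IgG ovaries had 3127 genes and 13 members past the threshold between tissues and the interaction 14 genes. Ackr2, Ackr3, Ccl11, Ccl17, Ccl21a, Cxcl12, Cxcl14 and Cxcl16 kept their calls in Sema3E ovaries under each alternative, and Cxcl14, Ccl21a, Cxcl12 and Ackr3 in IgG ovaries.

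Replicate numbers were not taken as pairs, since no source used here ties them to mice. Correlations of same-numbered libraries, as deviations from group means, ran from −0.07 to 0.34 in GCs and from −0.18 to 0.06 in OST. Between tissues they ran from −0.02 to 0.2 in Sema3E ovaries and from 0.02 to 0.11 in IgG ovaries. Differently numbered libraries were not set beside them, so these values cannot decide on pairing. With the replicate number as a block GCs had 245 genes past the adjusted threshold and, at an unadjusted p under 0.05, 3 members higher and 1 lower, beside 743 higher and 341 lower of all 15128 genes. TPM keep no depth, so the precision of low values is unknown.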
